A study of Homo sapiens with 6 samples.

Results

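The path from ATF4 to CHOP was followed through 10 genes in poly(A) RNA-seq libraries of cells given an siRNA against CPT2 or a control siRNA, out of 24154 genes in the deposited table: ATF4, ATF3, DDIT3, TRIB3, CHAC1, SESN2, DDIT4, PPP1R15A, NUPR1 and GDF15. All 10 were found by gene name, and all 10 had enough counts to be tested. The set was picked by its place in one pathway and in part selected on the counts of the knockdown against control comparison itself, in which DDIT3, CHAC1, SESN2 and ATF3 were lower. Values of that comparison are therefore a description for these genes and carry no test. The cells are labelled HCT116, a human colorectal carcinoma cell line. The NC group (3 libraries) received a negative control siRNA and the CPT2 knockdown group (3 libraries) an siRNA against CPT2, both for 48 h. Both groups thus share the handling of an siRNA treatment, and no untreated cells were analysed here. The labels name no siRNA sequence. Nothing in them ties the 3 libraries of a group to different cultures, so the p-values given here reflect the spread among libraries alone, and that spread may be technical. In bulk RNA, fewer cells with a transcript and less of it per cell cannot be told apart.

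ATF4 is a basic leucine zipper (bZIP) transcription factor whose mRNA is translated preferentially when stress kinases phosphorylate the initiation factor eIF2alpha, so that its protein can rise with little change of its mRNA. ATF4 and its partners bind C/EBP-ATF response elements (CARE) in genes for amino acid supply, feedback and cell death, among them DDIT3, which encodes the bZIP factor CHOP. In colorectal cancer cells the pathway is known to respond to amino acid shortage, endoplasmic reticulum stress and mitochondrial dysfunction. CPT2 is the inner-membrane carnitine palmitoyltransferase of mitochondrial fatty acid oxidation.

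Depth was even, at 28353790 to 29449380 counts per library. CPT2 knockdown replicate 1 stood apart on the first principal component (76.6 against -44.6 to 16.0 in the other libraries), and transcripts of mitochondrial DNA took 17.0%, 15.6% and 8.99% of counts in knockdown replicates 1 to 3 against 10.002% to 10.8% in NC. The targeted gene, CPT2, had 23.6, 28.6 and 29.1 CPM (counts scaled to library size) in NC replicates 1 to 3 and 19.4, 21.3 and 19.0 in the knockdown, which did not pass (log2 fold change -0.44, SE 0.17, edgeR adjusted p = 0.338). The CPT2 groups did not overlap in CPM, as in 12.2% of all tested genes in the lower direction, nor in raw counts. With offsets for GC content and length, described further on, the log2 fold change was 0.017 (SE 0.20). Without knockdown replicate 1 it was -0.44, and -0.26 (SE 0.13) with offsets as well. By DESeq2 the CPT2 log2 fold change was -0.45, and on log2(FPKM + 1), a scale described further on, -0.50. A lower CPT2 mRNA in the libraries labelled as knockdown thus depends on whether the offsets are used and, with offsets, on knockdown replicate 1. The label HCT116 is only partly borne out by epithelial markers. Of 13 colorectal epithelial markers, 4 (KRT8, KRT18, CLDN4 and CLDN7) were at 10 CPM or more in every library and 9 stayed under 5 CPM in every library. EPCAM and CDH1, surface and adhesion genes of epithelium, had 2.68 to 4.32 and 1.03 to 2.90 CPM, VIL1 at most 0.107 CPM, and CDX1 and CDX2 no counts. Of 13 markers of other cell types, 11 stayed under 5 CPM, LYZ and ALB had no counts, and CDH5 (52.2 to 87.8 CPM) and COL1A1 (57.03 to 127.9 CPM) did not. Summed, the epithelial markers had 1611 to 1874 CPM in NC and 1780 to 2759 CPM in the knockdown. The other 13 had 148 to 151 CPM in NC and 149 to 185 CPM in the knockdown. Most of the epithelial sum came from KRT8 (938.1 to 1433 CPM) and KRT18 (609.5 to 1220 CPM), and most of the other from CDH5 and COL1A1. What these levels say of the cells' identity was not tested.

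By length-scaled level, the 10 genes spanned more than 2 orders of magnitude in the deposited FPKM (fragments scaled to transcript length and library size), which is the scale used to set one gene against another. DDIT4, an inhibitor of the mTORC1 growth kinase, stood highest with 286.8 ± 26.0 FPKM in NC, followed by ATF4 with 115.8 ± 5.91 (SD, n = 3 each). GDF15, a secreted stress cytokine, had 37.9 ± 3.98 FPKM in NC, PPP1R15A, the stress-induced subunit of the eIF2alpha phosphatase, 28.2 ± 1.89, and TRIB3, a pseudokinase that binds ATF4, 24.1 ± 2.10. The values of PPP1R15A (26.11 to 29.86) and TRIB3 (21.96 to 26.14) met at the edge of their ranges. ATF3 (13.2 ± 1.25 FPKM) and DDIT3 (11.6 ± 2.48 FPKM) did not differ beyond their spread in NC. The lowest 3 were SESN2, a stress-induced mTORC1 inhibitor, with 2.96 ± 0.291 FPKM, CHAC1, a glutathione-degrading enzyme, with 1.87 ± 0.452, and NUPR1, a small chromatin-associated stress protein, with 1.10 ± 0.399. CHAC1 and NUPR1 overlapped in NC. The factor ATF4 and its abundant targets thus lay at the 97.1st (ATF4) and 99.0th (DDIT4) percentiles of all tested genes by FPKM, whereas DDIT3 lay at the 66.5th and CHAC1 at the 29.2nd.

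**Figure D1:**
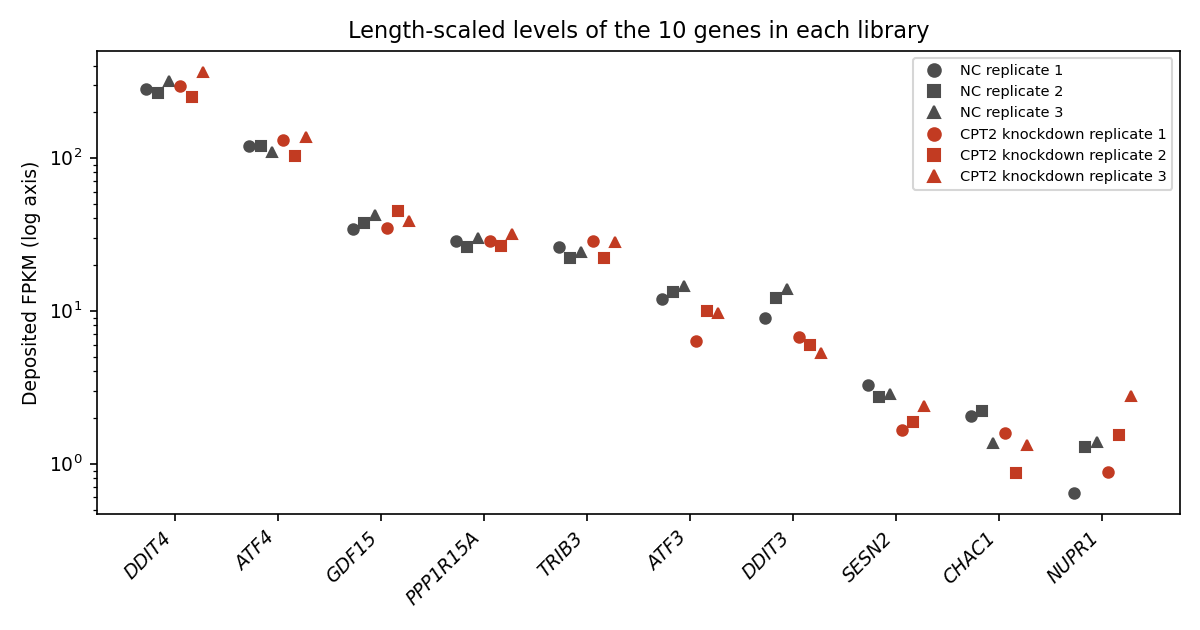
Deposited FPKM of the 10 genes on a log axis, ordered by their NC mean, with 1 symbol per library (grey NC, red CPT2 knockdown; shape gives the replicate number). DDIT4 and ATF4 stand highest in all 6 libraries; the red points of DDIT3, ATF3 and SESN2 all lie under the grey ones.

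The pathway's readouts divided into 4 genes that were lower in the knockdown and 6 with positive fitted values. Fitted log2 fold changes of the knockdown over NC were -0.80 for DDIT3, -0.54 for ATF3, -0.52 for CHAC1 and -0.46 for SESN2, and 0.14 to 0.27 for the other genes. Over all 10 genes the median was 0.16, against 0.008 over all 15302 tested genes. By edgeR, 0 of the 10 genes were called at an adjusted p of 0.05, where 0.0131% of tested genes were called, and 3 of 10 (DDIT3, ATF3 and SESN2) had an unadjusted p under 0.05, where 14.5% of tested genes did. DESeq2 also called 0 of 10, with 0.111% of genes called. Groups of 3 did not overlap in CPM for 3 genes in the lower direction (DDIT3, ATF3 and SESN2; background 12.2% of tested genes) and for 1 in the higher direction (ATF4; background 12.2%). Since the genes were chosen in part for these values, nothing is read from the counts.

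ATF4 mRNA itself was not lower. ATF4 (ENSG00000128272, chromosome 22, 39519695 to 39522685, plus strand, GRCh38) had 198, 191 and 197 CPM in NC replicates 1 to 3 and 257, 210 and 234 CPM in knockdown replicates 1 to 3. All 3 knockdown libraries lay above the highest control on this scale, and the NC libraries were close to each other (coefficient of variation 2.09%, against 10.03% in the knockdown). The fitted log2 fold change was 0.26 (SE 0.13). The raw counts, 5944, 5882 and 6184 in NC and 6493, 5880 and 6823 in the knockdown, overlapped, and so did the FPKM. The scaling therefore decided whether the groups were apart: with library size alone the log2 fold change was 0.11, on a scale on which the median of all genes was -0.13.

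DDIT3 had the lowest fitted value of the set. DDIT3 (ENSG00000175197, chromosome 12, 57516588 to 57521737, minus strand) encodes CHOP, the bZIP factor that links prolonged stress to cell death. Its level was 8.499, 11.22 and 12.67 CPM in NC replicates 1 to 3 and 7.627, 5.887 and 5.11 CPM in the knockdown. The groups were apart by a narrow margin, between NC replicate 1 and knockdown replicate 1, and the fitted difference was 42.5% (log2 fold change -0.80, SE 0.24). In the authors' deposited table, DDIT3 had a log2 fold change of -0.80 and was the 1 gene of the 10 called down, a call that 1.38% of the genes tested there received. Of the annotated exon bases of DDIT3, 27.2% also lie in exons of MARS, the methionyl-tRNA synthetase gene on the opposite strand, and 4.44% in exons of MBD6. MARS had 101, 89.1 and 94.4 CPM in NC and 73.4, 79.4 and 84.1 CPM in the knockdown (log2 fold change -0.27, SE 0.14). MBD6 had 77.6, 95.2 and 90.7 CPM in NC and 181, 105 and 97.6 CPM in the knockdown. No source used here says how the authors' counting treated strand, so reads of the shared bases cannot be assigned, and their part in the DDIT3 values was not tested. AC022506.1, a gene model on the same strand that shares 8.03% of the DDIT3 exon bases, had no counts in any library.

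ATF3, a bZIP repressor induced by ATF4 and by growth and damage signals, was lower in every knockdown library. ATF3 (ENSG00000162772, chromosome 1, 212565334 to 212620777, plus strand) had 23.03, 25.16 and 26.49 CPM in NC and 13.1, 19.4 and 19.0 CPM in the knockdown. The distance was greatest in knockdown replicate 1, the library that stood apart, and without it the log2 fold change was -0.38 in place of -0.54 (SE 0.20).

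CHAC1, which cleaves glutathione to 5-oxoproline and is among the most ATF4-dependent genes, was lower on average with overlapping groups. CHAC1 (ENSG00000128965, chromosome 15, 40952962 to 40956519, plus strand) rested on few reads, 116, 110 and 72 counts in NC and 79, 47 and 58 in the knockdown. These were 3.87, 3.57 and 2.30 CPM in NC and 3.12, 1.68 and 1.99 CPM in the knockdown. NC replicate 3 lay under knockdown replicate 1, and the coefficient of variation within NC was 25.7%. The log2 fold change was -0.52 (SE 0.33), -0.83 without knockdown replicate 1 and -0.35 without knockdown replicate 2.

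SESN2 and DDIT4, both inhibitors of mTORC1, differed in the sign of their values. SESN2 (ENSG00000130766, chromosome 1, 28259527 to 28282491, plus strand), a sensor of leucine that holds back GATOR2, had 11.76, 9.435 and 9.894 CPM in NC and 6.995, 6.85 and 8.711 CPM in the knockdown, with all knockdown values under the lowest control (log2 fold change -0.46, SE 0.20). DDIT4 (ENSG00000168209, chromosome 10, 72273920 to 72276036, plus strand), which acts through the TSC complex, had 506, 464 and 553 CPM in NC and 622, 462 and 669 CPM in the knockdown. Knockdown replicate 2 lay just under the lowest control while the others exceeded the highest, and the log2 fold change was 0.20 (SE 0.17). It was 0.096 without knockdown replicate 3 and 0.34 without replicate 2. The antisense gene DDIT4-AS1 shares 41.2% of the DDIT4 exon bases in the annotation and was not analysed here.

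The feedback genes TRIB3 and PPP1R15A had small positive values and overlapping groups. TRIB3 (ENSG00000101255, chromosome 20, 362835 to 397559, plus strand) had 67.5, 54.6 and 60.8 CPM in NC and 86.6, 58.3 and 74.1 CPM in the knockdown, with overlapping groups (log2 fold change 0.26, SE 0.18; 0.11 without knockdown replicate 1). PPP1R15A (ENSG00000087074, chromosome 19, 48872392 to 48876057, plus strand), also called GADD34, had 67.5, 60.2 and 68.9 CPM in NC and 77.8, 64.7 and 74.6 CPM in the knockdown. Its groups overlapped, with a log2 fold change of 0.14 (SE 0.15), 0.077 without knockdown replicate 1.

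GDF15 and NUPR1 overlapped between the groups. GDF15 (ENSG00000130513, chromosome 19, 18374731 to 18389176, plus strand), a circulating marker of mitochondrial stress, had 42.7, 44.5 and 50.6 CPM in NC and 50.7, 56.6 and 48.8 CPM in the knockdown (log2 fold change 0.18, SE 0.15). NUPR1 (ENSG00000176046, chromosome 16, 28532708 to 28539174, minus strand) had 3.67, 3.53 and 5.81 CPM in NC and 5.89, 5.24 and 4.56 CPM in the knockdown (log2 fold change 0.27, SE 0.26). NUPR1 counts and FPKM did not run together: 1 FPKM stood for 47.9 counts in knockdown replicate 3 and for 171 counts in NC replicate 1, a ratio of 3.57, where the ratio of highest to lowest was 1.04 to 1.29 for the other 9 genes. The NUPR1 level is therefore uncertain on either scale.

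**Figure D2:**
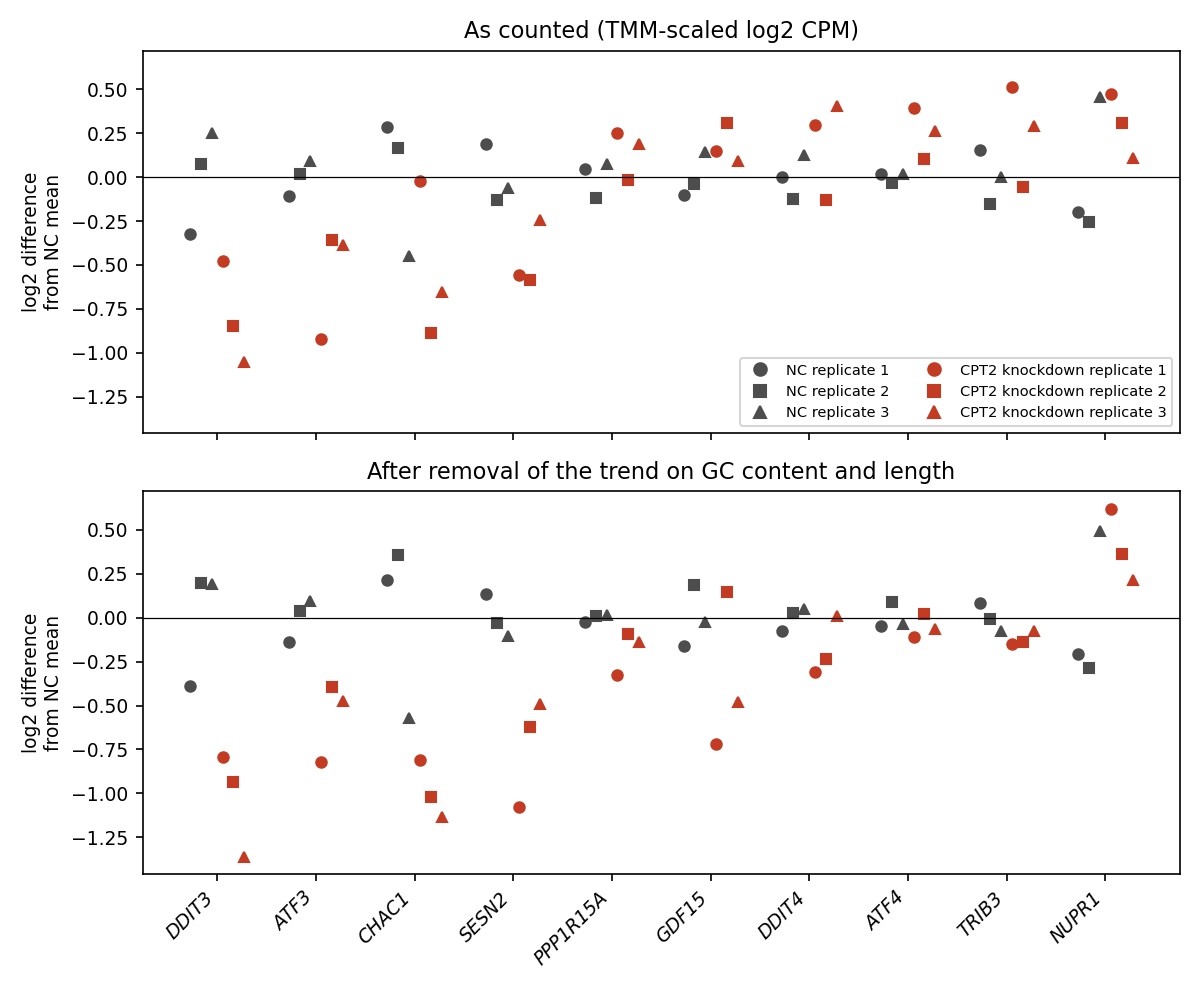
Difference of each library from the NC mean in log2 CPM (y axis) for the 10 genes (x axis, ordered by fitted fold change), as counted (upper panel) and after removal of the trend on GC content and length (lower panel); grey NC, red CPT2 knockdown, shape gives the replicate. As counted, the red points of DDIT3, ATF3 and SESN2 lie under all grey points and those of ATF4 above them, whereas in the lower panel ATF4 overlaps and CHAC1 is apart.

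The upstream sequences of the 4 lower genes are shown because they share a regulator in the textbook account of the pathway. RefSeq promoter windows on GRCh38.p14, from 250 bases before to 50 after a transcript start, matched 9 of the 10 genes by symbol in 14 windows, with NUPR1 missing. The 250 bases before the start are printed 5′ to 3′ on the gene's strand, with motif matches in capitals. They lie at chr12:57520518-57520767 (DDIT3, minus strand), chr15:40953221-40953470 (CHAC1), chr1:212565157-212565406 (ATF3, the window that holds a match) and chr1:28259268-28259517 (SESN2).
DDIT3: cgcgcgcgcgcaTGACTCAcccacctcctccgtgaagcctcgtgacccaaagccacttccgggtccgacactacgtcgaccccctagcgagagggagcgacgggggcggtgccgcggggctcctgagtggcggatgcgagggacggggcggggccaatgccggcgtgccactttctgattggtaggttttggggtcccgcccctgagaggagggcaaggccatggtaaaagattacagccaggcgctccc
CHAC1: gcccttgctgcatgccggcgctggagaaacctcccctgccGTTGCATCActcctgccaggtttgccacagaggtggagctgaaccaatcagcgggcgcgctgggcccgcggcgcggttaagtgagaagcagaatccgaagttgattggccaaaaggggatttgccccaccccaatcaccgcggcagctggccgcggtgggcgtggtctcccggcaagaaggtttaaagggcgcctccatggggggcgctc
ATF3: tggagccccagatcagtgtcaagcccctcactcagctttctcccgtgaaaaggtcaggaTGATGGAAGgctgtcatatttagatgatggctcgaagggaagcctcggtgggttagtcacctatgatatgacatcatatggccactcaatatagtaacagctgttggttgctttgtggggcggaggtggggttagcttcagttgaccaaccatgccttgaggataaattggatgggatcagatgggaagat
SESN2: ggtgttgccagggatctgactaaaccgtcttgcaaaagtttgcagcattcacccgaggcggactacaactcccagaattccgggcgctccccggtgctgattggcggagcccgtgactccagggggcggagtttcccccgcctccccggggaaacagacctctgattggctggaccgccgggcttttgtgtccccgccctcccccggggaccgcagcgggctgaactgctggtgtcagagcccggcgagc

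Both strands of each 300-base window were searched for 4 motifs. CARE, searched as TGATGNAAN, occurred in CHAC1 as TGATGCAAC on the opposite strand, 202 to 210 bases before the start (chr15:40953261-40953269), and in ATF3 as TGATGGAAG, 183 to 191 bases before the start (chr1:212565216-212565224). Of all 35116 windows, 3.61% held that motif. The AP-1 site TGANTCA was found in DDIT3 as TGACTCA (chr12:57520749-57520755), as in 7.71% of all windows. The cyclic AMP response element TGACGTCA was found in PPP1R15A, 51 to 58 bases before the start (chr19:48872363-48872370), as in 1.85% of all windows. The endoplasmic reticulum stress element ERSE occurred in 0.0769% of all windows and in no window of the 10 genes. The motifs do not contain one another, and genes with several starts count several times among the windows. A match is a string of letters and no site of binding, and the absence of one says only that these letters are not in the window: SESN2, ATF4, TRIB3, DDIT4 and GDF15 held none of the 4.

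Transcripts of 7 of the 10 genes are GC-rich, and in these libraries fold changes over all genes differed with GC content and length, so that the values above depend on how that trend is treated. The longest annotated transcripts of ATF4, TRIB3, CHAC1, SESN2, DDIT4, PPP1R15A and GDF15 had 56.7% to 62.9% GC, against a median of 48.9% over 13207 tested genes, and those of ATF3, DDIT3 and NUPR1 46.7%, 49.7% and 50.3%. A smooth fit of every library on GC content and length put the all-gene trend, knockdown minus NC, at 0.30 on the log2 scale for a gene like ATF4, 0.37 for TRIB3 and for DDIT4, 0.33 for PPP1R15A, 0.53 for GDF15 and 0.47 for CHAC1. For ATF3 it was 0.010 and for DDIT3 0.24. The trend at the position of CHAC1 was 0.79 in knockdown replicate 1, 0.13 in replicate 2 and 0.48 in replicate 3.

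With the trend as an offset in the fit, the 4 lower genes stayed lower and 5 of the other 6 turned from positive to negative values. The log2 fold change was then -1.04 (SE 0.21) for DDIT3, -1.04 (SE 0.29) for CHAC1, -0.72 (SE 0.18) for SESN2 and -0.56 (SE 0.14) for ATF3. ATF4 had -0.050 (SE 0.093), TRIB3 -0.12 (SE 0.092), DDIT4 -0.17 (SE 0.11), PPP1R15A -0.18 (SE 0.097), GDF15 -0.31 (SE 0.21) and NUPR1 0.37 (SE 0.25). After the trend was taken out of each library, the knockdown values lay under all controls for 6 of the 10 genes (DDIT3, ATF3, CHAC1, SESN2, TRIB3 and PPP1R15A), where 10.6% of genes did. The choice of the genes bears on that count, from which nothing is read, and TRIB3 is in it by a near tie of NC replicate 3 and knockdown replicate 3 (both -0.077 from the NC mean). Leaving out knockdown replicate 1 as well gave -1.16 for DDIT3, -1.15 for CHAC1, -0.56 for SESN2, -0.44 for ATF3 and -0.020 for ATF4. NUPR1 had a transcript of 5491 bases as its stand-in, the longest of the set, and its trend value is uncertain for that reason.

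**Figure D3:**
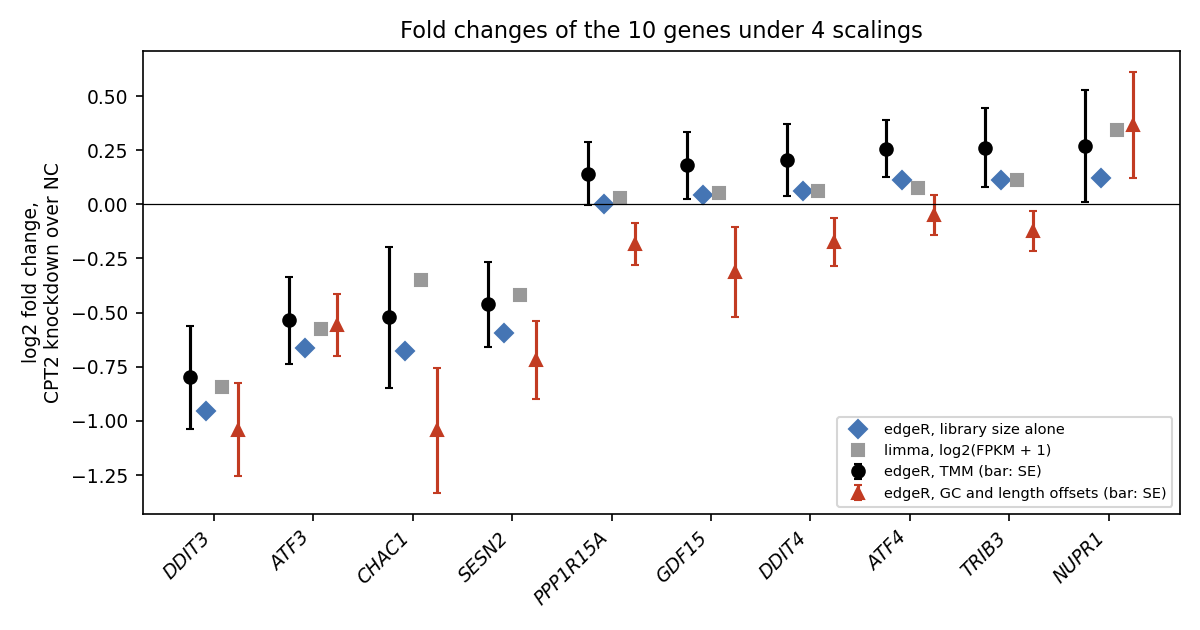
Log2 fold change of the CPT2 knockdown over NC (y axis) for the 10 genes (x axis) under 4 scalings: TMM (black, bar SE), library size alone (blue), log2(FPKM + 1) (grey) and offsets for GC content and length (red, bar SE). DDIT3, ATF3, CHAC1 and SESN2 lie under 0 under all 4, and ATF4, TRIB3, DDIT4, PPP1R15A and GDF15 change sign with the offsets.

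Counts were also set against those of ATF4 in the same library, which needs no library scaling but restates the values on which the genes were chosen. DDIT3 counts were 4.29%, 5.88% and 6.42% of ATF4 counts in NC replicates 1 to 3 and 2.97%, 2.81% and 2.18% in the knockdown. ATF3 counts were 11.6%, 13.2% and 13.4% of ATF4 in NC and 5.10%, 9.25% and 8.12% in the knockdown, and SESN2 counts 5.94%, 4.95% and 5.01% against 2.73%, 3.27% and 3.72%. These 3 ratios did not overlap between the groups, as in 26.5% of all tested genes in that direction, and the ratios carry the GC and length trend (0.30 for ATF4 against 0.010 for ATF3). For CHAC1 the ratio was 1.95%, 1.87% and 1.16% in NC and 1.22%, 0.799% and 0.850% in the knockdown, with NC replicate 3 under knockdown replicate 1. TRIB3 counts were 31.2% ± 2.73 of ATF4 in NC and 31.1% ± 3.03 in the knockdown (SD, n = 3 each, here and below). DDIT4 had 260% ± 18.9 and 250% ± 33.4, and PPP1R15A 33.5% ± 1.72 and 31.0% ± 0.785. GDF15 had 23.5% ± 2.05 and 22.5% ± 3.88, and NUPR1 2.22% ± 0.630 and 2.25% ± 0.278. The groups overlapped in all 5, which does not show equal change. The GC and length trend bears on these ratios too, at 0.53 for GDF15 and -0.10 for NUPR1 against 0.30 for ATF4. A ratio shows unequal change and not which of the pair moved.

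**Figure D4:**
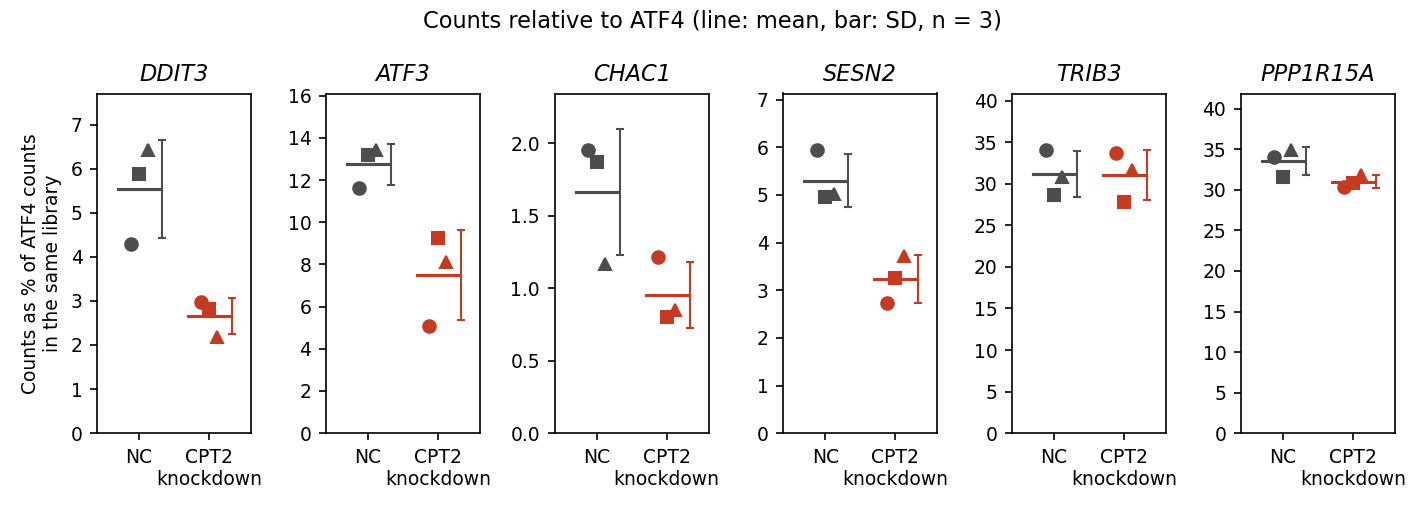
Counts of 6 genes as a percentage of ATF4 counts in the same library (y axis from 0, own scale per gene) in NC (grey) and CPT2 knockdown (red), with 1 symbol per library, the mean as a line and the SD as a bar (n = 3). For DDIT3, ATF3 and SESN2 no knockdown value reaches the NC values, while TRIB3 and PPP1R15A overlap.

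Likeness between the genes was measured over the same 6 libraries and so contains the knockdown against control difference on which they were chosen. The root mean square difference between 2 centred log2 CPM profiles over the 6 libraries was 0.074 for ATF4 and PPP1R15A, 0.11 for ATF4 and TRIB3 and 0.13 for ATF4 and DDIT4, the members nearest to ATF4. It was 0.23 for ATF3 and SESN2 and 0.36 to 0.52 for the other pairs among DDIT3, ATF3, CHAC1 and SESN2. GDF15 lay at 0.16 and NUPR1 at 0.24 from ATF4, and TRIB3 lay at 0.26 from GDF15 and 0.29 from NUPR1, farther than ATF3 from SESN2. The libraries share the GC trend, and nothing is read from the distances. Outside the set, among 10456 named genes with a mean of at least 5 CPM, the profiles nearest to DDIT3 were those of NSD2 (0.18), a histone methyltransferase gene, DMBT1 (0.20) and ZNF696 (0.22). Among the 3 nearest to ATF3 were TAF1A (0.050) and INSIG2 (0.052), whose transcripts had 42.5% and 35.5% GC. Among the 3 nearest to SESN2 were ALG14 (0.074) and KLHL18 (0.099), and nearest to CHAC1 were AC022400.6 (0.18), TRABD2A (0.22) and ZFYVE26 (0.22).

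Upstream of ATF4, the genes of the eIF2alpha kinases, phosphatases and the exchange factor eIF2B had 0 of 20 called. At an unadjusted p under 0.05, 0 were higher and 2 lower, beside 9.18% and 5.29% of all tested genes. The median log2 fold change of the list was -0.094, and -0.017 with GC and length offsets. EIF2AK3, the kinase PERK of the endoplasmic reticulum, had 34.2 ± 3.11 CPM in NC and 21.2 ± 8.97 in the knockdown (log2 fold change -0.69, SE 0.30, edgeR adjusted p = 0.338). PPP1R15B, the constitutive partner of PPP1R15A in the phosphatase, had 246 ± 42.2 and 155 ± 58.3 CPM (log2 fold change -0.66, SE 0.28, edgeR adjusted p = 0.338). In both the lowest value came from knockdown replicate 1, and neither passed. Without that library EIF2AK3 had -0.40 and PPP1R15B -0.40, and with GC and length offsets -0.47 and -0.39. With both changes the values were -0.27 (SE 0.11) and -0.23 (SE 0.10). PPP1CA, a catalytic subunit of the phosphatase, had 0.33 (SE 0.15), and -0.11 with GC and length offsets.

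Among the other targets of ATF4, 0 of 39 tested genes were called by edgeR and 0 by DESeq2. At an unadjusted p under 0.05, 9 were lower and 1 higher. The median log2 fold change was -0.23, with 27 negative and 12 positive values, and with GC and length offsets -0.18, with 32 negative and 7 positive. Among all tested genes, 5.29% were lower and 9.18% higher at that p. The groups lay apart in the lower direction for 15 of 39 genes and in the higher direction for 1, beside 12.2% of all tested genes in each direction. FAM129A, a stress-induced regulator of translation, had 29.2 ± 3.94 CPM in NC and 19.04 ± 2.88 in the knockdown (log2 fold change -0.62, SE 0.19, edgeR adjusted p = 0.338). EPRS, the glutamyl-prolyl-tRNA synthetase, had -0.53 (SE 0.17) on the log2 scale and ALDH1L2, the mitochondrial formyltetrahydrofolate dehydrogenase, -1.03 (SE 0.37), neither of which passed. With GC and length offsets FAM129A had -0.33, EPRS -0.22 and ALDH1L2 -0.70. The list medians by library were -0.30, -0.22 and -0.17 in knockdown replicates 1 to 3 and -0.042 to 0.004 in NC.

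The other arms of the unfolded protein response, which can also induce DDIT3, had 0 of 20 genes called by edgeR and 1, HERPUD1, by DESeq2. Values were negative for 15 of 20, with a median of -0.27 (-0.18 with GC and length offsets), 8 lower and 0 higher at an unadjusted p under 0.05, and groups apart in the lower direction for 11, beside 5.29%, 9.18% and 12.2% of all tested genes. HERPUD1 helps to degrade misfolded proteins at the endoplasmic reticulum and is also a known ATF4 target. It had 97.1, 95.5 and 97.6 CPM in NC and 52.8, 66.0 and 63.2 CPM in the knockdown (log2 fold change -0.67, SE 0.15, edgeR adjusted p = 0.338; DESeq2 adjusted p = 0.0171). CANX had -0.59 (SE 0.19) and EDEM1 -0.59 (SE 0.19), with edgeR adjusted p = 0.338 for both. With GC and length offsets these were -0.28 for CANX, -0.32 for EDEM1 and -0.63 for HERPUD1.

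Downstream of CHOP and among regulators of cell death, 0 of 15 genes were called. At an unadjusted p under 0.05, 1 was higher and 2 were lower, beside 9.18% and 5.29% of all tested genes. TNFRSF10B, the death receptor DR5 and a CHOP target, had 137 ± 12.5 CPM in NC and 106 ± 10.1 in the knockdown (log2 fold change -0.37, SE 0.15, edgeR adjusted p = 0.338), and BBC3, the BH3-only gene PUMA, 3.41 ± 1.57 and 6.52 ± 2.00 CPM (log2 fold change 0.93, SE 0.39, edgeR adjusted p = 0.338). The BBC3 groups overlapped, and with GC and length offsets BBC3 had 0.31. Of the 24 bZIP partners of ATF4 and CHOP none was called, and 6 were higher and 0 lower at an unadjusted p under 0.05, beside the same shares. The median log2 fold change of these partners was 0.15, and 0.002 with GC and length offsets. For JUNB the log2 fold change was 0.53 (SE 0.15), and 0.044 with GC and length offsets. JDP2 had 0.59 (SE 0.18) and 0.65 (SE 0.15) with them, but its FPKM overlapped between the groups.

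Neighbouring programmes gave no call either. Genes counted below as higher or lower had an unadjusted p under 0.05, as had 9.18% (higher) and 5.29% (lower) of all tested genes. Among 15 immediate early genes, a class to which ATF3 also belongs, 5 were higher, with JUNB of the bZIP partners among them, and 0 lower. Their median log2 fold change was 0.25, and -0.039 with GC and length offsets, with 8 negative and 7 positive values. FOSB had 31.6 ± 4.36 CPM in NC and 70.01 ± 31.6 in the knockdown (log2 fold change 1.15, SE 0.29, edgeR adjusted p = 0.338). Knockdown replicate 1 had 106.4 CPM of FOSB against 50.7 and 52.9 in the other two, and without it the log2 fold change was 0.70, or 0.62 with offsets as well. Of 26 p53 targets, a list that shares inducers with SESN2, GDF15 and ATF3, 1 was higher and 4 were lower. The higher gene was BBC3, and TNFRSF10B was among the lower, both also counted with the regulators of cell death. The median log2 fold change of the p53 targets was -0.22, and -0.12 with GC and length offsets, with 20 of 26 negative. ZMAT3 had -1.02 (SE 0.25), or -0.57 with GC and length offsets. Among 19 sestrins, REDD1 relatives and mTORC1 regulators 1 was higher and 1 lower, MTOR having -0.44 (SE 0.14). Of 12 glutathione genes 2 were higher and 0 lower, of 18 hypoxia targets 1 higher and 1 lower, and of 8 mitochondrial stress partners 2 higher and 0 lower. Median log2 fold changes of these lists were in turn 0.18, -0.12 and -0.014, and 0.077, -0.19 and 0.015 with GC and length offsets. Values were negative for 14 of the 18 hypoxia targets and for 4 of the 8 mitochondrial stress partners. KDM3A, the 1 hypoxia target lower at that p, had -0.57 (SE 0.245), or -0.19 with offsets. GPX4, the lipid peroxide reductase, had 0.83 (SE 0.22), ALDOC 0.53 (SE 0.18) and CLPP 0.55 (SE 0.15), which with GC and length offsets were 0.29, 0.21 and 0.030. Without knockdown replicate 1, ALDOC had 0.34. Over all 11 lists, 0 of 207 tested genes were called by edgeR, 1 by DESeq2, and 21.3% had an unadjusted p under 0.05, beside the 14.5% of all tested genes. Nuclear-retained and intron-retaining transcripts were listed as a possible sign of RNA quality. MALAT1 and NEAT1 were not found by gene name, which left 11 of the 13 listed genes. The median differences of these 11 from the NC mean were -0.87, -0.042 and -0.22 in knockdown replicates 1 to 3, and -0.12 to 0.19 in NC. The list median log2 fold change was -0.37, and -0.015 with GC and length offsets (6 negative and 5 positive values). No measure of RNA integrity was analysed here, and the part of RNA quality in the values above was not tested.

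**Figure D5:**
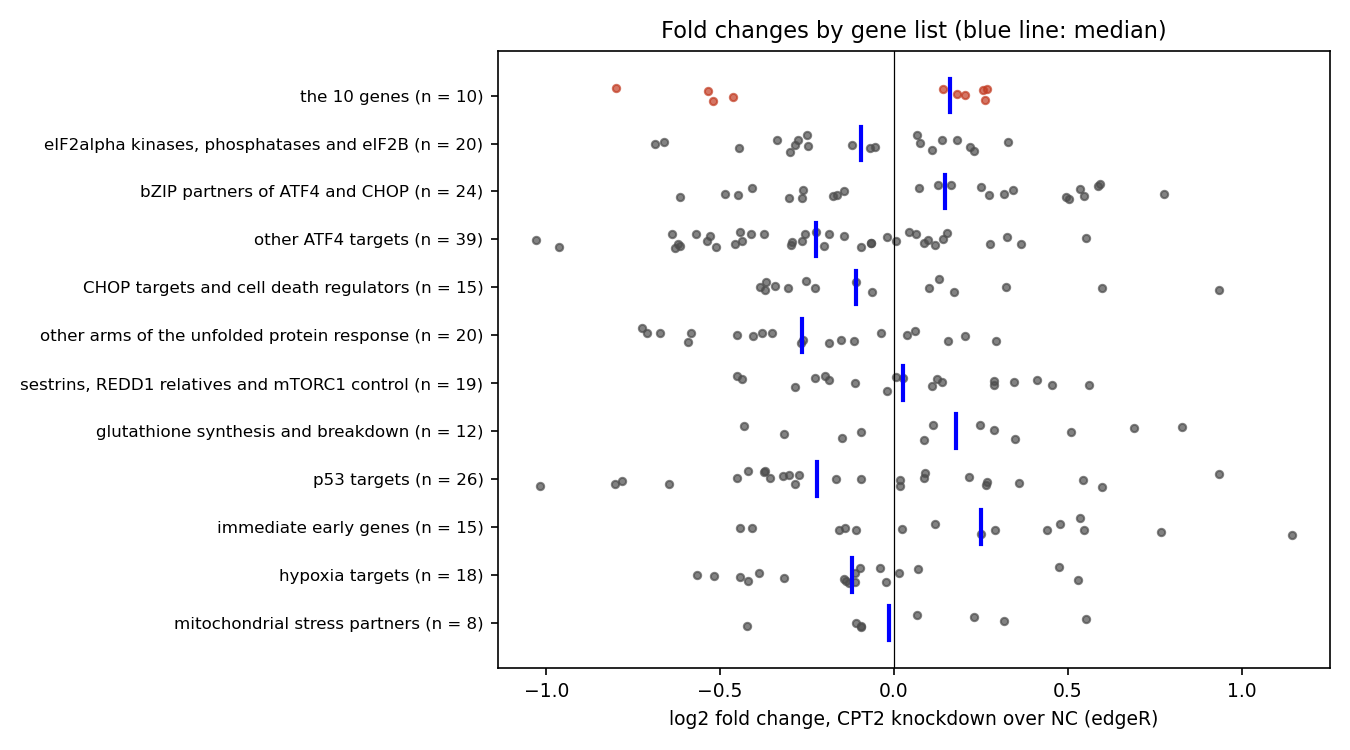
Log2 fold change of the CPT2 knockdown over NC (x axis) for the 10 genes (red) and for the tested genes of 11 lists around them (grey), with the list median as a blue line. The 10 genes fall into 4 at -0.46 and under and 6 at 0.14 and over, and the medians of the other ATF4 targets (-0.23) and of the other unfolded protein response genes (-0.27) lie under 0.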

How the data were processed

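Poly(A) RNA-seq of 6 libraries (3 NC, 3 CPT2 knockdown, 48 h) was analysed from the authors' deposited table of 24154 genes, after 17 stray lines without values were left out. The deposited values are raw read counts per gene, not normalized, and FPKM, named so in the file headers without the gene models or library sizes used. The p-value, log2 fold change and call of the authors' DESeq2 comparison stand beside them, per the file headers (an unadjusted p of 0.01 and a fold of 1.5). The submitters' processing notes name build GRCh38 and the tools StringTie, HISAT2, Bowtie2, TopHat2, edgeR and DESeq2, with no role or version for any. No source used here says how reads were assigned to genes and strands. New loci without an Ensembl ID held 5.32% to 7.18% of counts and stayed in library sizes and tests.

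Counts were fitted in R 4.3.3 with edgeR 4.0.16 (filterByExpr, 15302 genes; TMM; robust quasi-likelihood F-test; Benjamini-Hochberg over all genes, threshold 0.05). The SE is the log2 fold change divided by the root of F. CPM use TMM-scaled library sizes, and log2 CPM a prior count of 2. Offsets came from a loess of each library (span 0.3) on GC content and length of the longest GENCODE 29 transcript. Alternatives were DESeq2 1.42.0, limma-voom and limma-trend on log2(FPKM + 1) and log2(FPKM + 0.1) with limma 3.58.1, other scalings and filters, the replicate number as a block, offsets, and leaving out each library. The combination of offsets with leaving out CPT2 knockdown replicate 1 was chosen after seeing the data.

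The members and the gene lists were chosen with earlier results of these data known. Named genes were the members, CPT2, the 3 genes of each list with the smallest p and the 3 nearest profiles of DDIT3, CHAC1, SESN2 and ATF3, of which some are not reported here. MARS, MBD6, AC022506.1 and DDIT4-AS1 were named for sharing exon bases, and markers for their levels, after their values were seen.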

Additional observations from a re-analysis of the deposited data

How the results depend on the processing

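DDIT3, ATF3, CHAC1 and SESN2 had negative log2 fold changes in all 18 alternatives run (-1.16 to -0.67, -0.66 to -0.38, -1.15 to -0.35 and -0.73 to -0.36), and NUPR1 positive ones (0.12 to 0.54). ATF4, TRIB3, DDIT4, PPP1R15A and GDF15 turned negative in the 3 fits with GC and length offsets. The median of the 10 genes, 0.16, was 0.021 with library size alone, -0.25 with GC and length offsets, -0.27 with offsets and the replicate block, and -0.13 with offsets and without CPT2 knockdown replicate 1. Calls across all genes, 2, numbered 17 by DESeq2, 1 by limma-voom, 0 on FPKM with either pseudocount, 4 with offsets and without CPT2 knockdown replicate 1, and 1 to 5 when a library was left out. There was 1 call without NC replicate 1 or 3 and 5 calls when CPT2 knockdown replicate 2 was left out. Genes with an unadjusted p under 0.05, 2215, numbered 503 without NC replicate 2, and 5615 when CPT2 knockdown replicate 2 was left out.

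The labels give both groups replicate numbers 1 to 3. Same-numbered libraries deviated together for replicates 1 and 2 (r = 0.25 and 0.36) but not for replicate 3 (0.007). Differently numbered libraries had r from -0.32 to 0.091. Whether the numbers mark pairs cannot be told from these values, and the main fit did not take them as pairs. With the replicate block, calls across all genes numbered 633, calls in the lists 13 of 207 and calls among the 10 genes 0. With the replicate block and offsets these were 650 of 13207, 20, and 3 (ATF3, DDIT3 and SESN2). Since ATF3, DDIT3 and SESN2 were chosen in part on this same contrast, their calls carry no test. DESeq2 made 1 call in the lists.

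Of the named genes outside the 10, 5 changed sign in fits with offsets. PPP1CA was -0.11, -0.12 with the replicate block and -0.007 without CPT2 knockdown replicate 1. MLST8 was -0.054, -0.052 and -0.026 in the same fits, and CPT2 was 0.017 with offsets alone. With offsets and without CPT2 knockdown replicate 1, GPX1 was -0.025 and CA9 -0.031. Further genes of the lists also changed sign with offsets, among them EIF4EBP1 (0.55 to -0.084), PYCR1 (0.33 to -0.14) and ATF6 (-0.26 to 0.15). The cause was not tested. CHAC1 rested on 47 to 116 counts a library, which limits its precision.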
